A study of Homo sapiens with 36 samples.

Results

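The 10 genes described here are EGR1, EGR2, FOS, FOSB, FOSL1, FOSL2, JUN, JUNB, JUND and IER2, which encode transcription factors of the AP-1 and EGR families and a small nuclear protein of the same early response. They were taken by name from the 57820 genes of the deposited count table, and each matched 1 gene identifier. Their transcripts were counted by RNA-seq in A2780 cells, an established line from a human ovarian cancer, over 36 libraries in 12 conditions of 3. The parental platinum-sensitive cells are called wt. Their isogenic platinum-resistant derivative, obtained by chronic exposure to cisplatin, is called cis. Cells named cis SSP grew out of the cis cells during serine and glycine deprivation and had regained expression of the serine synthesis pathway. The study reports that cis SSP cells also regained part of the sensitivity to platinum. Each line was grown in complete medium or in medium that lacked serine and glycine (-SG), in each case with or without carboplatin (carbo). For deprivation the protocols name a homemade RPMI with 10% dialyzed serum, made with or without the amino acids, and for maintenance RPMI with 10% ordinary serum, and they do not say which of them the cells in complete medium received. The labels give the carboplatin concentration as 6 M, whereas other experiments of the study used micromolar amounts, and they give no time of harvest. In the section on growth assays, the study's methods set a default of several days for all experiments, and the RNA-seq section names no time. The interval between the start of carboplatin and harvest is therefore not stated for these libraries. The cis and cis SSP states are each represented by a single derived line. By the study's description, the 3 libraries sharing a condition are technical replicates. All p-values therefore measure only the spread between these libraries.

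AP-1 is a dimer of basic leucine zipper proteins. JUN, JUNB and JUND can pair with each other or with a FOS-family protein (FOS, FOSB, FOSL1 or FOSL2), whereas FOS-family proteins need a JUN partner to bind DNA. EGR1 and EGR2 are zinc-finger factors that bind GC-rich sites. Most of these genes are immediate-early genes, transcribed within minutes of a growth factor or stress signal without new protein synthesis. Mitogen-activated protein kinases (ERK, JNK and p38) act on factors already bound at their promoters, such as SRF with its ELK partners at CArG boxes and ATF/JUN dimers at CRE-like sites, and the transcripts are typically short-lived.

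In GRCh37, EGR1 lies at chr5:137801168-137804992, EGR2 at chr10:64571756-64578927, FOS at chr14:75745529-75748933, FOSB at chr19:45971253-45978437 and FOSL1 at chr11:65659520-65668044. FOSL2 lies at chr2:28615315-28640184, JUN at chr1:59242517-59249720, JUNB at chr19:12902300-12904129, JUND at chr19:18390504-18392432 and IER2 at chr19:13261225-13265725. All 10 are annotated as protein-coding. JUNB shares 259 exon bases with HOOK2 on the opposite strand, whose counts amounted to 13.8% of those of JUNB. IER2 and EGR2 overlap exons of long non-coding RNAs, and no counts were found under the identifiers of these RNAs. An identifier missing from the deposited table would give the same result. Whether reads from these RNAs were counted for IER2 or EGR2 was therefore not tested. The strand setting of the counting is not given in the sources used here, so JUNB carries this uncertainty.

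Promoter sequences, read from RefSeq (GRCh38.p14), were matched for 9 of the 10 genes, with 11 start sites in all, and FOSL1 is not among them. The 250 bases before each start were searched on both strands for the CArG box, for the CRE (TGACGTCA), for the CRE-like site (TGACNTCA, which includes the CRE), for the AP-1 site (TGANTCA) and for the EGR site (GCGNGGGCG). The promoters of EGR1, JUN and JUND are shown because they belong to the gene with the highest level per exon length, the gene with the widest range and the gene with the narrowest range across the conditions. Capitals mark the matches.
EGR1 (chr5:138465229-138465478, plus strand): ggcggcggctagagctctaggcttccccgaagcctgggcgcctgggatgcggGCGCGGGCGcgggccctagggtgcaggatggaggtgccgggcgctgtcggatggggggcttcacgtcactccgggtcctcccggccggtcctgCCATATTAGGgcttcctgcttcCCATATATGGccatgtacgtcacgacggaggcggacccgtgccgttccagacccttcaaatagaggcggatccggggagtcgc
JUN (chr1:58784048-58784297, minus strand): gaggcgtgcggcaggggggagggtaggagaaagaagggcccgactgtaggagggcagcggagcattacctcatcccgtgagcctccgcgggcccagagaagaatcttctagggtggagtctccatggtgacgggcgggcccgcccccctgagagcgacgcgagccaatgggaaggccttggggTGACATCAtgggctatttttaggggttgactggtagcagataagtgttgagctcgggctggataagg
JUND (chr19:18281623-18281872, minus strand): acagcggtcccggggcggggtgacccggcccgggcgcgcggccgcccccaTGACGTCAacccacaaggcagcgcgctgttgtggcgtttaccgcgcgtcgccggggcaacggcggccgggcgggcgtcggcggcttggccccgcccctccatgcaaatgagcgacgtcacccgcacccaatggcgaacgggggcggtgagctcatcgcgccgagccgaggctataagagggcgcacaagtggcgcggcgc
EGR1 held 2 CArG boxes, CCATATTAGG and CCATATATGG, and 1 EGR site, GCGCGGGCG. JUN held 1 CRE-like site, TGACATCA, and JUND held 1 CRE. One of the 3 starts of EGR2 had a CArG box, and no listed motif was found in this window of FOS, FOSB, FOSL2, JUNB or IER2. The shorter CRE half-site TGACG, which every CRE contains and the capitals do not mark, occurred once or more in each of these 5 genes and in EGR1, JUN, JUND and 1 start of EGR2, against 21.2% of all promoters. Among 35116 promoters of the same length, 1.16% held a CArG box, 1.65% a CRE, 6.87% a CRE-like site, 6.57% an AP-1 site and 8.41% an EGR site. These matches are letters in a sequence, and binding at them was not measured.

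Each library held 13074937 to 20441582 counts assigned to genes. Of 8 epithelial and ovarian markers, KRT18 (at most 43.1 CPM as a condition mean) was the highest. EPCAM, CDH1, PAX8 and MUC16 stayed at or under 1.64 CPM. The leukocyte marker PTPRC and the endothelial marker CDH5 stayed at or under 0.065 CPM, while of the mesenchymal genes COL3A1 was at 620.4 to 3593 CPM, COL1A1 at 1.83 to 933 CPM and DCN at 0.224 to 24.3 CPM. Library 25 (cis SSP replicate 1) and library 32 (cis SSP -SG replicate 2) stood apart from the other libraries of their conditions along transcript length. Protein-coding genes with under 2000 exon bases were at a median of 1.73 and 1.74 times the level in the other 2 libraries, and those with over 5000 bases at 0.824 and 0.83 times. Among the genes described here, JUND was at 2.16 and 2.44 times, JUNB at 1.55 and 2.04 times and IER2 at 1.51 and 1.59 times the level of the partner libraries, and FOSL2 at 0.688 and 0.739 times. The other 6 were within 0.829 to 1.22 times. Calls from comparisons that use these libraries are given with and without them, whereas the condition means include them. Libraries 23 and 24 (cis -SG carbo) had 17.9% and 14.9% of reads on no feature, against at most 9.31% elsewhere.

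**Figure D1:**
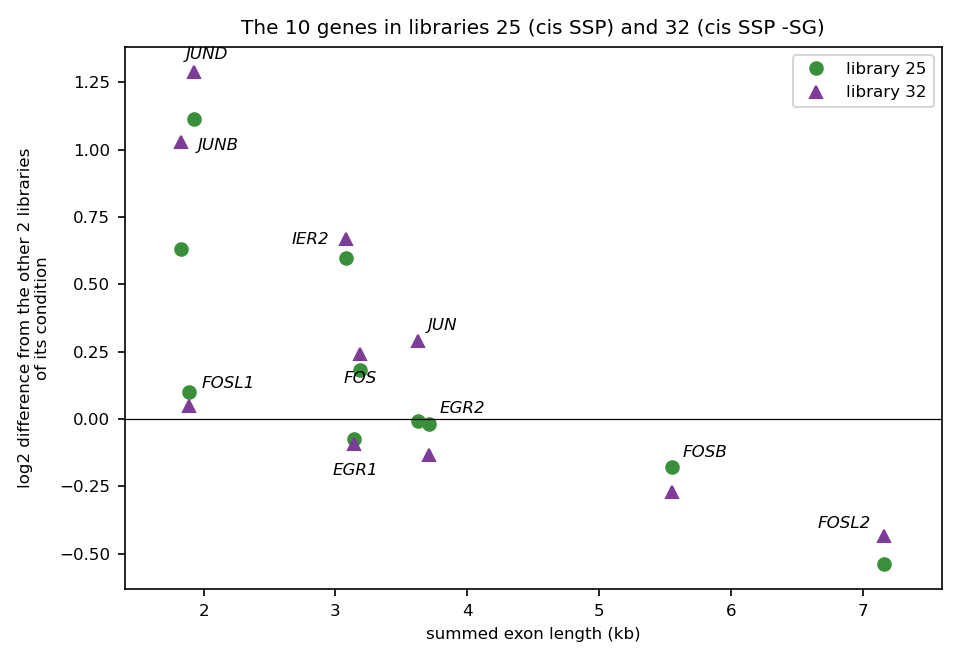
Difference of library 25 (circles) and library 32 (triangles) from the other 2 libraries of their conditions, as log2 CPM, against the summed exon length of each gene in kb. JUND and JUNB, both with under 2 kb of exons, lie highest and FOSL2, the longest, lies lowest, while FOSL1 lies near 0.

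Expression is given as CPM, counts per 1000000 after TMM scaling of the 36 library totals. Levels of different genes are compared per kb of exon. Over the 12 conditions the median level was 66.2 CPM per kb for EGR1, 62.5 for JUND and 48.5 for JUNB, against 14.7 for FOSL1, 12.5 for IER2 and 11.3 for FOS. EGR2, FOSB, FOSL2 and JUN were the lowest, with medians of 5.21, 4.85, 4.70 and 3.38 CPM per kb. The genes differed widely in how far they moved. Between its lowest and highest condition mean, JUN spanned 86.1-fold, FOSL1 22.2-fold and EGR2 21.1-fold, whereas IER2 spanned 2.85-fold and JUND 1.93-fold.

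**Figure D2:**
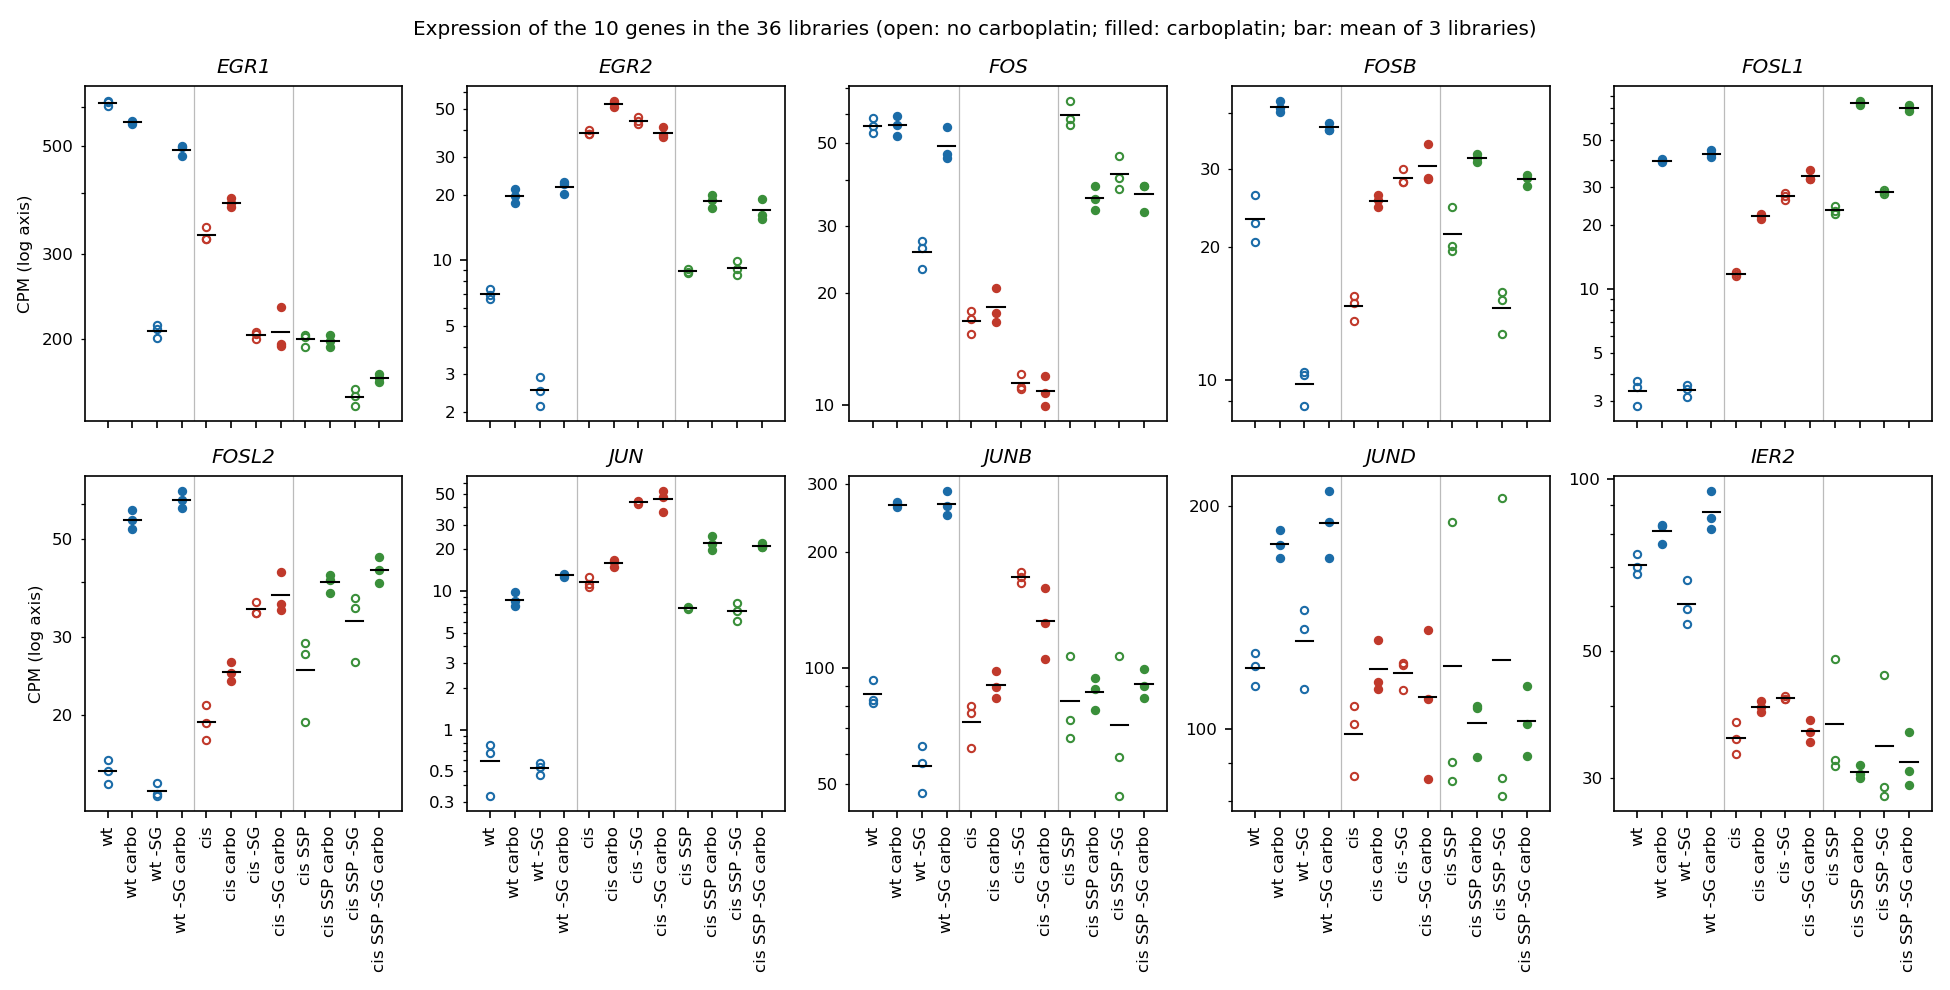
CPM of the 10 genes on log axes in the 12 conditions, with 1 point per library, open without and filled with carboplatin, and a bar at the mean of 3 libraries. Blue, red and green mark wt, cis and cis SSP cells. The means of JUN run from 0.531 CPM in wt -SG to 45.7 CPM in cis -SG carbo, while those of JUND stay within 1.93-fold.

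The order of the conditions differed from gene to gene. FOSL1 was highest in cis SSP carbo (73.98 CPM) and cis SSP -SG carbo (70.2 CPM), followed by wt -SG carbo, wt carbo and cis -SG carbo, and its 2 lowest conditions, wt -SG and wt, overlapped each other. JUN was highest in cis -SG carbo (45.7 CPM) and cis -SG (43.5 CPM), which overlapped, and lowest in wt -SG (0.531 CPM) and wt (0.597 CPM), which overlapped too. EGR2 was highest in the 4 cis conditions and lowest in wt -SG (2.51 CPM). EGR1 had its 3 highest levels in wt, wt carbo and wt -SG carbo, and the 5 conditions from wt -SG to cis SSP carbo formed a chain of neighbours that overlapped. FOS was highest in cis SSP (59.5 CPM), which overlapped wt carbo, and its 4 lowest conditions were those of cis cells. JUNB and FOSL2 were highest in both carboplatin-treated wt conditions. IER2 was higher in each of the 4 wt conditions than in any library of cis or cis SSP cells. In JUND, 10 of 11 neighbouring pairs of conditions overlapped.

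The first comparison asked how sensitive cells responded to carboplatin. In wt cells in complete medium, 8 of the 10 genes were called higher with carboplatin and 1 lower (edgeR quasi-likelihood test, adjusted p under 0.05). Of all 14639 genes tested, 38.9% were called higher and 39% lower, so most genes passed in one direction or the other, and 8 of 10 higher stands against that share. The median log2 fold change of the 10 genes was 1.19, against -0.000736 over all genes. JUN and FOSL1, a JUN and a FOS-family partner, rose most. In bulk RNA, a change in the share of cells that express a gene cannot be told apart from a change per cell.

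JUN was at 0.332, 0.777 and 0.682 CPM in wt libraries, from 6, 14 and 13 counts, and at 9.75, 7.79 and 8.44 CPM with carboplatin. The groups were far apart, and JUN was 14.5-fold higher, with a log2 fold change of 3.86 (SE 0.187, edgeR adjusted p = 2.61e-75), where SE is the standard error. FOSL1 (FRA-1) rose from 2.82, 3.72 and 3.46 CPM to 40.6, 39.2 and 39.5 CPM. This was 12.04-fold, with a log2 fold change of 3.59 (SE 0.0848, edgeR adjusted p = 4.11e-206). FOSL2 (FRA-2), its close relative, rose from 15, 15.9 and 14.01 CPM to 57.9, 54.98 and 52.7 CPM, a log2 fold change of 1.90 (SE 0.0554). JUNB, already abundant, rose from 82.5, 93.05 and 81.4 CPM to 267, 261 and 269 CPM, and its log2 fold change was 1.65 (SE 0.0269). None of these 4 genes had overlapping groups.

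EGR2 rose from 7.36, 6.94 and 6.66 CPM to 19.8, 21.2 and 18.5 CPM, with a log2 fold change of 1.52 (SE 0.0849, edgeR adjusted p = 5.95e-60). EGR1, the most abundant of the 10, went the other way and fell slightly, from 604, 614 and 618 CPM to 555, 561 and 563 CPM. Its log2 fold change was -0.11 (SE 0.0187, edgeR adjusted p = 6.53e-09). FOSB, the FOS-family gene nearest in sequence to FOS, rose by 0.85 on the log2 scale. FOS itself was at 58.3, 53.3 and 55.7 CPM without and 59.2, 55.9 and 52.4 CPM with carboplatin. These overlapped, with a log2 difference of 0.02 (95% interval -0.06 to 0.10, edgeR adjusted p = 0.645). JUND and IER2 rose by 0.57 and 0.21 on the log2 scale, without overlap between the groups. All 9 calls held when any 1 library was left out.

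In cis cells in complete medium, 7 of the 10 genes were called higher with carboplatin and none lower by edgeR. The same 7 had an unadjusted p under 0.05, and DESeq2 called 6. Over all 13458 genes, 9.27% were called higher and 10.8% lower. The steps were small. FOSL1 rose from 11.9, 11.5 and 11.7 CPM to 21.3, 22.3 and 21.9 CPM, a log2 fold change of 0.93 (SE 0.0743, edgeR adjusted p = 1.63e-10). FOSB rose from 13.6, 15.5 and 14.9 CPM to 26.1, 24.6 and 25.6 CPM, by 0.82 (SE 0.0704, edgeR adjusted p = 7.31e-10) on the log2 scale. No other of the 10 genes passed 0.5 on this scale in cis cells. JUN rose from 12.7, 11.2 and 10.7 CPM to 14.8, 16.6 and 16.02 CPM, with a log2 fold change of 0.48 (SE 0.0864, edgeR adjusted p = 0.000146). EGR2 (0.48), FOSL2 (0.40), EGR1 (0.25) and IER2 (0.21) also rose. IER2 lost its call without library 14, with a log2 fold change of 0.17 (edgeR adjusted p = 0.06). JUNB, at 79.7, 76.4 and 62.1 CPM before and 83.8, 98.3 and 89.6 CPM after, did not pass, with 0.34 (95% interval -0.00362 to 0.69, edgeR adjusted p = 0.163), but passed without library 15 at 0.23 (edgeR adjusted p = 0.0162). JUND and FOS did not pass either, with log2 differences of 0.32 (95% interval -0.00253 to 0.63, edgeR adjusted p = 0.163) and 0.16 (95% interval -0.01 to 0.33, edgeR adjusted p = 0.175).

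The responses of cis and wt cells were then compared by an interaction term, in which a negative value means a smaller rise in cis cells. It was called for 6 of the 10 genes, 5 lower and 1 higher, where 27.2% of 15300 genes were called lower and 30.3% higher. The difference was -3.37 (SE 0.224, edgeR adjusted p = 4.59e-20) for JUN and -2.66 (SE 0.123, edgeR adjusted p = 3.06e-27) for FOSL1. It was -1.50 (SE 0.0923) for FOSL2, -1.31 (SE 0.136) for JUNB and -1.04 (SE 0.0971) for EGR2. EGR1, which fell in wt and rose in cis cells, differed by 0.37 (SE 0.034). The lines also started from different levels, and JUN and FOSL1 in untreated cis cells were already above untreated wt cells. With carboplatin, the mean of JUN was 8.66 CPM in wt carbo and 15.8 CPM in cis carbo, and that of FOSL1 39.8 and 21.8 CPM. For FOSB the difference between the responses was -0.03 (95% interval -0.23 to 0.16, edgeR adjusted p = 0.817) and for IER2 0.01 (95% interval -0.12 to 0.14, edgeR adjusted p = 0.942). JUND did not pass, with -0.25 (95% interval -0.54 to 0.04, edgeR adjusted p = 0.126), and passed without library 15 at -0.36 (edgeR adjusted p = 0.0133).

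**Figure D3:**
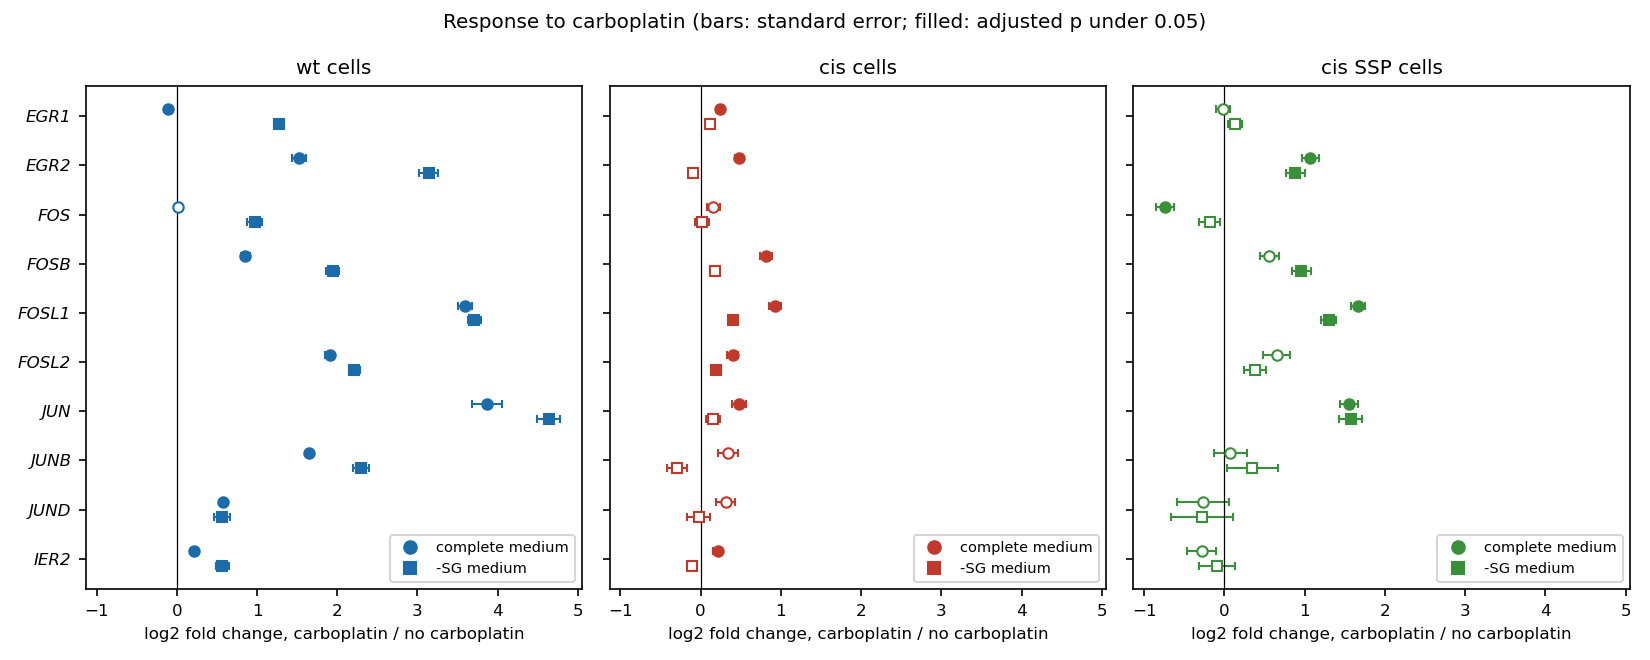
Log2 fold change with carboplatin for the 10 genes in wt, cis and cis SSP cells, in complete medium (circles) and without serine and glycine (squares), with standard errors. Filled symbols passed an adjusted p of 0.05. JUN and FOSL1 lie above 3 in wt cells, under 1 in cis cells and between 1.30 and 1.66 in cis SSP cells.

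In cis SSP cells in complete medium, 3 genes rose and 1 fell with carboplatin, where 1.97% of 13885 genes were called higher and 0.749% lower. FOSL1 rose from 24.4, 23.04 and 22.4 CPM to 75.5, 72.5 and 73.9 CPM, the highest level of this gene in the series, with a log2 fold change of 1.66 (SE 0.0916, edgeR adjusted p = 0.00164). JUN rose from 7.49, 7.36 and 7.71 CPM to 21.8, 24.7 and 19.9 CPM, with a log2 fold change of 1.55 (SE 0.117, edgeR adjusted p = 0.00397). EGR2 rose from 8.84, 9.15 and 8.75 CPM to 20.04, 17.4 and 18.9 CPM, by 1.07 (SE 0.104, edgeR adjusted p = 0.00819) on the log2 scale. FOS moved in the opposite direction, from 64.7, 56.01 and 57.9 CPM to 35.5, 33.1 and 38.5 CPM, without overlap. Its log2 fold change was -0.74 (SE 0.111, edgeR adjusted p = 0.0282).

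Library 25 is one of the 3 untreated libraries here. Without it, 7 of the 10 genes were called higher and 1 lower, and the share of all genes called moved to 21.9% higher and 19.2% lower. FOSB, FOSL2, JUNB and JUND were then called as well, at 0.49 (edgeR adjusted p = 3.72e-06), 0.49 (edgeR adjusted p = 1.66e-07), 0.32 (edgeR adjusted p = 0.0139) and 0.22 (edgeR adjusted p = 0.0258). JUND turned direction, from a log2 difference of -0.26. FOSL1, JUN, EGR2 and FOS stayed called, at 1.70, 1.55, 1.07 and -0.68. Leaving out any of libraries 26 to 30, with library 25 kept, lost the calls of EGR2 and FOS while their log2 fold changes stayed at 1.02 to 1.12 and -0.80 to -0.69. JUN lost its call without library 28, at 1.56 (edgeR adjusted p = 0.0541). EGR1 overlapped between the groups, at 193, 204 and 202 CPM without and 198, 204 and 193 CPM with carboplatin, with a log2 difference of -0.01 (95% interval -0.23 to 0.20, edgeR adjusted p = 0.946).

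The same question was asked without serine and glycine. In wt cells in -SG medium, all 10 genes rose with carboplatin, where 34.3% of 14467 genes were called higher and 34.6% lower. Every call held when any 1 library was left out. The median log2 fold change of the 10 was 2.08, against -0.00702 over all genes. JUN rose from 0.54, 0.474 and 0.578 CPM to 12.7, 13.1 and 13.2 CPM, which was 24.8-fold and a log2 fold change of 4.63 (SE 0.139, edgeR adjusted p = 7.81e-09). EGR2 rose from 2.503, 2.89 and 2.12 CPM to 22.9, 22.4 and 20.2 CPM, or 8.80-fold. FOSL1 rose 13.1-fold, JUNB 4.91-fold, FOSL2 4.64-fold and FOSB 3.85-fold.

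EGR1 and FOS, which had not risen in complete medium, rose here. EGR1 went from 210.1, 201 and 214 CPM to 499.7, 497 and 476 CPM, with a log2 fold change of 1.27 (SE 0.0528, edgeR adjusted p = 4.6e-08). FOS went from 27.5, 23.1 and 26.3 CPM to 45.8, 55.2 and 46.8 CPM, by 0.97 (SE 0.0934, edgeR adjusted p = 1.15e-05). The interaction of carboplatin and medium in wt cells was called for 7 genes, all with the larger response in -SG medium, where 14.6% of 15247 genes were called higher and 13.1% lower. It was 1.61 (SE 0.153, edgeR adjusted p = 1.76e-06) for EGR2, 1.37 (SE 0.0516, edgeR adjusted p = 6.52e-11) for EGR1, 1.08 (SE 0.117, edgeR adjusted p = 6.25e-06) for FOSB and 0.95 (SE 0.107, edgeR adjusted p = 9.24e-06) for FOS. JUNB (0.64), IER2 (0.35) and FOSL2 (0.31) differed by less, and FOSL2 lost its call without library 2, at 0.27 (edgeR adjusted p = 0.0567). The EGR1 levels of the 2 media lay closer with carboplatin than without. They were 559.7 CPM in complete and 491 CPM in -SG medium when treated, against 612 and 208 CPM untreated. For FOSL1 and JUND the difference of the responses was 0.11 (95% interval -0.18 to 0.41, edgeR adjusted p = 0.623) and -0.01 (95% interval -0.28 to 0.25, edgeR adjusted p = 0.947). JUN did not pass, with 0.77 (95% interval 0.01 to 1.52, edgeR adjusted p = 0.123), and passed without library 1 at 1.05 (edgeR adjusted p = 0.0412).

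In cis cells in -SG medium, 2 of the 10 genes were called higher with carboplatin and none lower by edgeR, where 10.9% of 14476 genes were called higher and 11.6% lower. At an unadjusted p under 0.05, 5 of the 10 passed, and DESeq2 called 1. FOSL1 rose from 25.99, 27.3 and 28.1 CPM to 35.8, 32.7 and 32.7 CPM, with a log2 fold change of 0.40 (SE 0.0537, edgeR adjusted p = 0.000184). FOSL2 overlapped between the groups (33.98, 35.97 and 33.98 against 42.1, 35.5 and 34.5 CPM), with 0.20 (SE 0.0567, edgeR adjusted p = 0.0238), and lost its call without library 19, 20, 21 or 22, at 0.14 to 0.21. JUNB was lower in the treated libraries, at 162, 106 and 131 CPM against 173, 178 and 166 CPM. It did not pass with -0.29 (95% interval -0.62 to 0.03, edgeR adjusted p = 0.176), but passed without library 22 at -0.42 (edgeR adjusted p = 0.0123) or library 23 at -0.18 (edgeR adjusted p = 0.0314). Without library 23, JUN (0.26, edgeR adjusted p = 0.000911) and EGR1 (0.13, edgeR adjusted p = 0.0357) were also called. Libraries 23 and 24 are those with many reads on no feature, and its part in the treated values was not tested.

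Against complete medium, the response of cis cells in -SG medium differed for 4 genes, all with the lower response in -SG medium. Of 14797 genes, 6.17% were called lower and 5.91% higher. In -SG medium EGR2 and IER2 each had a log2 change of -0.10 with carboplatin, which was not called. The starting levels differed too. Untreated cis -SG cells had means of 27.1 CPM for FOSL1 and 28.7 CPM for FOSB, against 21.8 and 25.4 CPM in cis carbo. The difference was -0.64 (SE 0.0929, edgeR adjusted p = 3.33e-05) for FOSB, -0.57 (SE 0.0668, edgeR adjusted p = 1.89e-06) for EGR2, -0.52 (SE 0.088, edgeR adjusted p = 0.000211) for FOSL1 and -0.31 (SE 0.0732, edgeR adjusted p = 0.00499) for IER2. JUNB did not pass, with -0.63 (95% interval -1.06 to -0.20, edgeR adjusted p = 0.0693). Without library 22, the number of calls rose to 8, with JUNB at -0.81 (edgeR adjusted p = 0.0125), JUN at -0.45 (edgeR adjusted p = 0.00876), FOSL2 at -0.31 (edgeR adjusted p = 0.0123) and EGR1 at -0.24 (edgeR adjusted p = 5.06e-05). EGR1 also passed without library 13, at -0.20 (edgeR adjusted p = 0.0412). The direction of the medium term was thus opposite in wt and cis cells for EGR2, FOSB and IER2, and the difference between the lines in this term was not tested.

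In cis SSP cells in -SG medium, 4 genes rose with carboplatin and none fell by edgeR, where 1.17% of 13541 genes were called higher and 0.295% lower. At an unadjusted p under 0.05, 5 of the 10 passed, and DESeq2 called 4. JUN rose from 6.07, 8.16 and 7.13 CPM to 22.2, 20.7 and 20.8 CPM, with a log2 fold change of 1.58 (SE 0.145, edgeR adjusted p = 0.0137). FOSL1 rose from 28.6, 29.1 and 27.8 CPM to 67.97, 72.3 and 70.3 CPM, by 1.30 (SE 0.092, edgeR adjusted p = 0.00777). FOSB rose from 15.8, 12.7 and 15.2 CPM to 28.7, 29.1 and 27.4 CPM, by 0.96 (SE 0.114, edgeR adjusted p = 0.0198). EGR2 rose by 0.89 (SE 0.12, edgeR adjusted p = 0.0277). Without library 32, an untreated library, 8 genes were called, all higher, and 21.1% of all genes were called higher and 19.9% lower. The added calls were JUNB at 0.81 (edgeR adjusted p = 0.0165), JUND at 0.32 (edgeR adjusted p = 0.049), FOSL2 at 0.27 (edgeR adjusted p = 0.00121) and EGR1 at 0.12 (edgeR adjusted p = 0.00599), and JUND had turned from -0.28. JUN, FOSL1, FOSB and EGR2 were then at 1.71, 1.34, 0.89 and 0.86. When any of libraries 31 and 33 to 36 was left out in its place, none of the 10 genes was called, with JUN still at 1.46 to 1.60 and FOSL1 at 1.27 to 1.32.

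The carboplatin responses of cis SSP cells in the 2 media did not differ for any of the 10 genes at the threshold of edgeR or DESeq2, where 0.0281% of 14231 genes were called and 3 of the 10 had an unadjusted p under 0.05. Without libraries 25 and 32, 4 were called, where 15% of all genes were. The interaction term was then 0.60 (edgeR adjusted p = 0.000271) for FOS, 0.39 (edgeR adjusted p = 0.0119) for FOSB and 0.15 (edgeR adjusted p = 0.015) for EGR1. For FOSL1 it was -0.37 (edgeR adjusted p = 0.00114). FOS did not rise in either medium. Its log2 fold change was -0.68 in complete medium without library 25 and -0.08 (edgeR adjusted p = 0.431) in -SG medium without library 32. For JUN the difference with all libraries was 0.04 (95% interval -0.34 to 0.41, edgeR adjusted p = 1).

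Serine and glycine deprivation alone was compared within each line. In wt cells, 6 of the 10 genes fell and none rose by edgeR or DESeq2, where 25.1% of 14284 genes were called lower and 24.1% higher. The EGR genes and the FOS and FOSB pair fell most. EGR1 fell from 604, 614 and 618 CPM to 210.1, 201 and 214 CPM, or 2.92-fold, with a log2 fold change of -1.54 (SE 0.0259, edgeR adjusted p = 5.52e-20). EGR2 fell from 7.36, 6.94 and 6.66 CPM to 2.503, 2.89 and 2.12 CPM, with a log2 fold change of -1.45 (SE 0.136, edgeR adjusted p = 2.37e-08). FOS fell from 58.3, 53.3 and 55.7 CPM to 27.5, 23.1 and 26.3 CPM and FOSB from 22.6, 20.5 and 26.2 CPM to 10.5, 10.3 and 8.74 CPM. Their log2 fold changes were -1.11 (SE 0.0594) and -1.21 (SE 0.0993). JUNB (-0.62) and IER2 (-0.22) fell by less. JUN, FOSL1 and FOSL2 overlapped between the media, with log2 differences of -0.17 (95% interval -0.94 to 0.60, edgeR adjusted p = 0.739), 0.02 (95% interval -0.30 to 0.34, edgeR adjusted p = 0.933) and -0.14 (95% interval -0.30 to 0.02, edgeR adjusted p = 0.142). The JUN values rest on 6 to 14 counts per library. JUND passed only without library 7, at 0.23 (edgeR adjusted p = 8.6e-05).

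In cis cells, deprivation moved all 10 genes, 8 up and 2 down, where 37.6% of 14122 genes were called higher and 37.4% lower. JUN rose from 12.7, 11.2 and 10.7 CPM to 44.2, 43.8 and 42.6 CPM, or 3.86-fold, with a log2 fold change of 1.95 (SE 0.0662, edgeR adjusted p = 3.09e-29). JUNB rose from 79.7, 76.4 and 62.1 CPM to 173, 178 and 166 CPM, by 1.27 (SE 0.0946, edgeR adjusted p = 0.000101). FOSL1 rose from 11.9, 11.5 and 11.7 CPM to 25.99, 27.3 and 28.1 CPM, by 1.24 (SE 0.0718, edgeR adjusted p = 2.29e-20). FOSB, which fell in wt cells, rose from 13.6, 15.5 and 14.9 CPM to 27.99, 27.97 and 29.99 CPM, and FOSL2 rose by 0.87 on the log2 scale. EGR2 (0.22), IER2 (0.26) and JUND (0.31) rose by under 0.5, and JUND lost its call without library 14, 19, 20 or 21 at 0.28 to 0.33. The 2 genes that fell were EGR1, from 340.0, 322 and 322 CPM to 200.1, 207 and 205 CPM, and FOS, from 17.9, 15.5 and 16.97 CPM to 11.1, 11.2 and 12.1 CPM. Their log2 fold changes were -0.66 (SE 0.0297) and -0.52 (SE 0.082). The difference between the lines in the response to deprivation was not tested.

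In cis SSP cells, none of the 10 genes was called with deprivation by edgeR or by DESeq2, and 4 had an unadjusted p under 0.05. Of all 13736 genes, 0.0218% were called higher and 0% lower, with library 25 on one side and library 32 on the other. Without both, 4 of the 10 genes were lower and 2 higher, where 17% of all genes were called lower and 18.9% higher. FOS (-0.55, edgeR adjusted p = 8.68e-09), FOSB (-0.54, edgeR adjusted p = 4.71e-05), EGR1 (-0.40, edgeR adjusted p = 3.52e-10) and IER2 (-0.17, edgeR adjusted p = 0.039) were lower. FOSL1 (0.30, edgeR adjusted p = 0.00117) and FOSL2 (0.33, edgeR adjusted p = 0.000198) were higher. JUN and EGR2 did not pass in either fit, and with all libraries their log2 differences were -0.09 (95% interval -0.46 to 0.27, edgeR adjusted p = 1) and 0.04 (95% interval -0.26 to 0.33, edgeR adjusted p = 1).

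**Figure D4:**
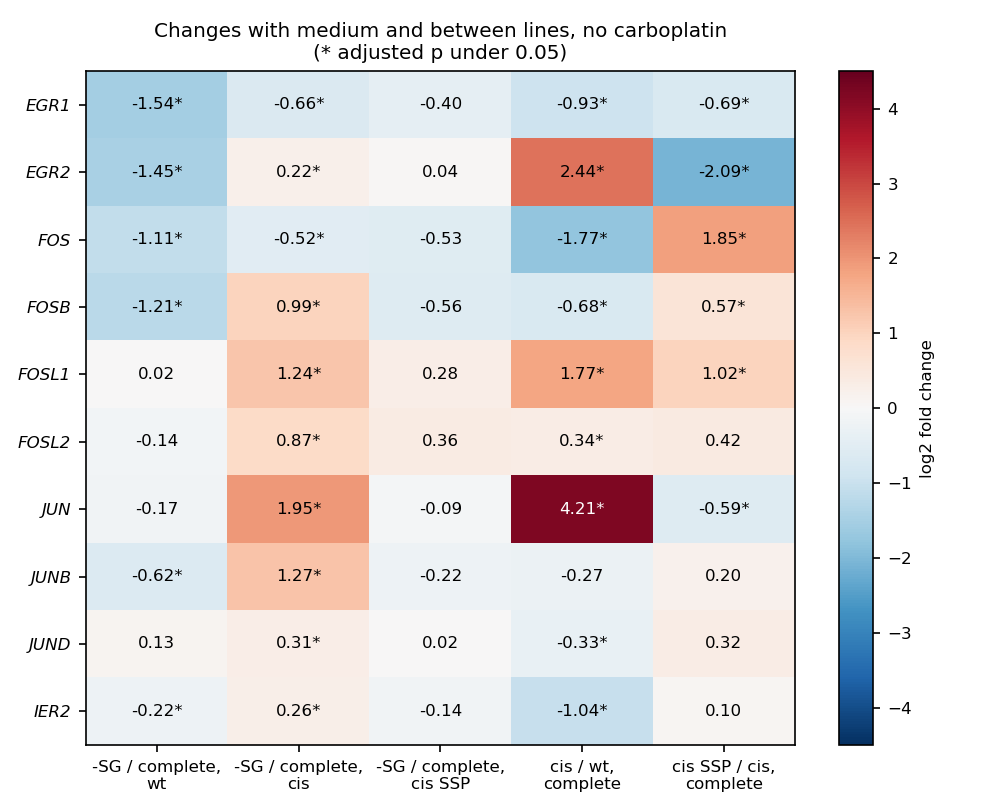
Log2 fold changes of the 10 genes without carboplatin, with serine and glycine deprivation in each line (first 3 columns), and between lines in complete medium (last 2 columns), where an asterisk marks an adjusted p under 0.05. JUN is the darkest cell at 4.21 between cis and wt cells. EGR2, FOS, FOSB and JUN have opposite signs with asterisks in both of the last 2 columns, which share the cis libraries. EGR1 and FOSL1 have asterisks in both with the same sign.

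Untreated lines in complete medium were compared next. Between cis and wt cells, 4 genes were higher in cis cells and 5 lower, where 39.4% of 14431 genes were called higher and 39.1% lower. This comparison uses the same wt libraries as the carboplatin and deprivation comparisons of wt cells. JUN was 18.5-fold higher in cis cells, at 12.7, 11.2 and 10.7 CPM against 0.332, 0.777 and 0.682 CPM, with a log2 fold change of 4.21 (SE 0.181, edgeR adjusted p = 5.19e-25). EGR2 was 5.41-fold higher, at 39.9, 38.1 and 38.1 CPM against 7.36, 6.94 and 6.66 CPM, with a log2 fold change of 2.44 (SE 0.073, edgeR adjusted p = 4.16e-31). FOSL1 was 3.42-fold higher, with a log2 fold change of 1.77 (SE 0.116, edgeR adjusted p = 3.1e-18), and FOSL2 was 1.27-fold higher. FOS was 3.41-fold lower in cis cells, at 17.9, 15.5 and 16.97 CPM against 58.3, 53.3 and 55.7 CPM, with a log2 fold change of -1.77 (SE 0.0581, edgeR adjusted p = 1.59e-29). IER2 was 2.06-fold lower, EGR1 1.91-fold and FOSB 1.61-fold. Within the FOS family, FOS and FOSB were therefore lower and FOSL1 and FOSL2 higher in the resistant line. Within the JUN family, JUN was higher and JUND slightly lower. JUND had a log2 fold change of -0.33 (SE 0.0973, edgeR adjusted p = 0.0298) and lost its call without library 2, 3 or 14, at -0.35 to -0.30. JUNB did not pass, with -0.27 (95% interval -0.60 to 0.06, edgeR adjusted p = 0.102), but passed without library 13 at -0.34 (edgeR adjusted p = 0.0458) or library 15 at -0.17 (edgeR adjusted p = 0.000126).

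Between cis SSP and cis cells, 3 genes were higher and 3 lower in cis SSP cells, where 15.8% of 13714 genes were called higher and 13.3% lower. FOS was 3.60-fold higher, at 64.7, 56.01 and 57.9 CPM against 17.9, 15.5 and 16.97 CPM, with a log2 fold change of 1.85 (SE 0.109, edgeR adjusted p = 0.000135). FOSL1 was 2.02-fold higher, at 24.4, 23.04 and 22.4 CPM against 11.9, 11.5 and 11.7 CPM, by 1.02 (SE 0.0939, edgeR adjusted p = 0.000705). EGR2 was 4.27-fold lower, at 8.84, 9.15 and 8.75 CPM against 39.9, 38.1 and 38.1 CPM, and its log2 fold change was -2.09 (SE 0.0966, edgeR adjusted p = 5.93e-05). EGR1 was lower too, at a log2 fold change of -0.69 (SE 0.0961, edgeR adjusted p = 0.00318). Across the 3 lines, mean FOS was 55.7, 16.8 and 59.5 CPM in wt, cis and cis SSP cells, mean EGR2 6.99, 38.7 and 8.91 CPM and mean EGR1 612, 328 and 199.8 CPM, with the cis libraries shared by both comparisons. The log2 fold change was 0.57 (SE 0.132, edgeR adjusted p = 0.0213) for FOSB and -0.59 (SE 0.115, edgeR adjusted p = 0.0111) for JUN. FOSB lost its call without library 13, 14, 15 or 27, at 0.45 to 0.62, and JUN without library 13 or 14, at -0.51 (edgeR adjusted p = 0.0616) and -0.60 (edgeR adjusted p = 0.0526). Without library 25, FOSL2 was also higher, at 0.59 (edgeR adjusted p = 2.07e-08), making 4 higher and 3 lower, where 32.9% of all genes were called higher and 32.5% lower. JUNB, JUND and IER2 overlapped between the lines, with log2 differences of 0.20 (95% interval -0.30 to 0.69, edgeR adjusted p = 0.508), 0.32 (95% interval -0.44 to 1.09, edgeR adjusted p = 0.477) and 0.10 (95% interval -0.33 to 0.54, edgeR adjusted p = 0.695). All 3 turned direction without library 25, to -0.02 (edgeR adjusted p = 0.92), -0.13 (edgeR adjusted p = 0.408) and -0.10 (edgeR adjusted p = 0.164), so no direction is read for them. FOS, FOSL1, EGR2 and EGR1 were then at 1.81, 0.999, -2.07 and -0.65. By their titles, libraries 25 to 36, which are all those of cis SSP cells, carry the same sequencing indices as libraries 1 to 12. The pools or runs are not given in the sources used here, so a pool of its own and the cis SSP line cannot be told apart.

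Other genes of the pathway were read from lists, which were chosen with earlier results of these data known. Of 28 further immediate-early genes, 26 were higher and 1 lower with carboplatin in wt cells in complete medium. Over all genes, 38.9% were called higher and 39% lower. The median log2 fold change of the 28 was 1.64, whereas the median over all genes lay between -0.0215 and 0.0188 in the 15 comparisons. The log2 fold change, with the mean CPM and SD of 3 libraries in the reference and then in the other group in brackets, was 3.45 (0.708 ± 0.0606 to 7.70 ± 1.14 CPM) for EGR4, of the EGR family, and 3.36 (0.581 ± 0.12 to 5.96 ± 0.618 CPM) for IER3. The gene that fell was NR4A1, an orphan nuclear receptor, with -0.76 (55.1 ± 1.46 to 32.2 ± 1.64 CPM). In cis cells 17 of 26 were higher and 1 lower, with a median of 0.36, against 9.27% higher and 10.8% lower over all genes. BTG2, an antiproliferative p53 target, led with 1.03 (50.4 ± 3.08 to 101 ± 4.59 CPM), before EGR3 with 0.74 (16.3 ± 1.18 to 26.4 ± 1.70 CPM). In cis SSP cells 7 of 26 were higher and 1 lower, against 1.97% and 0.749% of all genes. Without library 25 these were 22 and 3, against 21.9% and 19.2% of all genes. ATF3 rose there by 1.73 (2.10 ± 0.377 to 7.05 ± 0.47 CPM), and without library 25 it was at 1.61 (edgeR adjusted p = 5.82e-09). The interaction between cis and wt cells was lower for 22 of 28 and higher for 1, with a median of -1.10. Over all genes, 27.2% were called lower and 30.3% higher.

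Without serine and glycine, 25 of the 28 were higher with carboplatin in wt cells and 1 lower, against 34.3% and 34.6% of all genes. The rises were led by EGR4 with 5.45 (0.178 ± 0.0438 to 8.09 ± 0.424 CPM). EGR4 was at 0.129 to 0.21 CPM in the untreated libraries, so the size of its fold change rests on very few counts. ARC, a neuronal activity gene, followed with 4.29 (1.05 ± 0.132 to 20.4 ± 0.567 CPM). In cis cells 4 were higher and 4 lower of 27, near the shares of 10.9% and 11.6% over all genes. MYC fell there by 0.34 (491 ± 3.03 to 366 ± 48.6 CPM). In cis SSP cells 4 of 24 were higher and 1 lower, against 1.17% and 0.295% of all genes. Without library 32 these were 18 and 2, against 21.1% and 19.9% of all genes. With deprivation alone, falls outnumbered rises in wt cells and rises outnumbered falls in cis cells. In wt cells 11 of 25 fell and 7 rose, against 25.1% and 24.1% of all genes. EGR3 was at -1.38 (12.4 ± 0.873 to 4.67 ± 0.552 CPM) and DUSP2, a MAP kinase phosphatase, at -1.24 (20.2 ± 0.628 to 8.48 ± 0.336 CPM). In cis cells 19 of 26 rose and 4 fell, against 37.6% and 37.4% of all genes. KLF4 was at 5.79 (0.328 ± 0.0655 to 18.3 ± 1.42 CPM) and ATF3, a stress-induced bZIP factor, at 3.13 (8.92 ± 0.218 to 76.8 ± 0.323 CPM). Between untreated cis and wt cells 11 were higher and 11 lower of 25, near the shares of 39.4% and 39.1% over all genes. CCN1 and CCN2, matricellular genes, were far lower in cis cells, at -4.87 (141 ± 1.74 to 4.94 ± 0.452 CPM) and -5.02 (20.6 ± 0.415 to 0.646 ± 0.207 CPM). Between cis SSP and cis cells 10 of 25 were lower and 2 higher, against 13.3% and 15.8% of all genes. Without library 25 these were 14 and 5, against 32.5% and 32.9% of all genes.

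Counts in 4 further lists lay near the shares over all genes with carboplatin in wt cells, which were 38.9% higher and 39% lower, and nothing is read from them. This holds for the bZIP genes that can share dimers with AP-1 subunits, for kinases and SRF-linked regulators, for genes that ERK induces as feedback and for heat-shock genes. With carboplatin in wt cells 4 of 11 dimer partners rose and 3 fell, with MAFF at 2.02 (28.4 ± 1.43 to 113 ± 3.07 CPM) and ATF3 at 1.84 (21.6 ± 1.15 to 76.1 ± 4.497 CPM), both also counted above. JDP2, a repressor that pairs with JUN, fell by 1.12 (38.7 ± 2.01 to 17.6 ± 0.304 CPM), and ATF2 fell by 0.54 (110.5 ± 4.25 to 75.1 ± 2.12 CPM). In cis cells JDP2 fell by 0.34 (43.96 ± 2.84 to 34.1 ± 2.17 CPM), and in cis SSP cells without serine and glycine it fell by 0.86 (97.5 ± 11.3 to 53.8 ± 1.83 CPM), and without library 32 it was at -0.74 (edgeR adjusted p = 8.03e-11). BATF3 was higher in cis than in wt cells, at 4.09 (0.469 ± 0.0971 to 8.26 ± 0.972 CPM), and BATF2 lower, at -3.20 (20.7 ± 0.917 to 2.27 ± 0.372 CPM). Of 22 kinases and regulators, 10 were higher and 9 lower with carboplatin in wt cells. MAP2K6, a kinase upstream of p38, was far lower in cis than in wt cells, at -7.07 (59.7 ± 3.73 to 0.45 ± 0.12 CPM). NAB1, a corepressor of EGR proteins, was also lower, at -2.71 (66.7 ± 2.93 to 10.5 ± 0.677 CPM). MAP2K3 and ELK4, of the same list, were higher in cis cells, at 1.44 (33.1 ± 0.435 to 92.1 ± 0.655 CPM) and 0.87 (138 ± 1.60 to 258 ± 6.33 CPM). Of the 22 genes, 9 were higher and 11 lower in cis cells, against 39.4% and 39.1% of all genes. Of the ERK feedback genes, 5 rose and 6 fell of 11 tested. PHLDA1 rose by 4.07 (1.20 ± 0.0276 to 19.9 ± 0.659 CPM) and DUSP5 by 1.54 (8.25 ± 0.62 to 23.8 ± 1.60 CPM), while SPRY2 fell by 0.50 (577 ± 9.44 to 403 ± 10.6 CPM). In deprived cis cells 7 of 12 rose and 2 fell, against 37.6% and 37.4% of all genes, with DUSP4, a nuclear MAP kinase phosphatase, at 4.28 (0.458 ± 0.19 to 8.69 ± 1.01 CPM).

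Of 14 genes known to carry functional AP-1 sites, all 12 tested rose with carboplatin in wt cells, and their median was 2.04 on the log2 scale. Over all genes, 38.9% were called higher and 39% lower. HMOX1, which encodes heme oxygenase and is also a target of NRF2, rose by 4.88 (29.7 ± 0.93 to 866 ± 15.5 CPM), and MMP9, a gelatinase, by 4.96 (0.289 ± 0.107 to 9.11 ± 0.692 CPM). In cis cells 7 of 11 rose and 2 fell, with a median of 0.34, and the interaction was lower than in wt cells for all 12 tested. The shares over all genes were 9.27% higher and 10.8% lower in cis cells, and 27.2% lower for the interaction. MMP1, an interstitial collagenase, rose in cis cells by 1.02 (2406 ± 46.2 to 4769.7 ± 82.1 CPM). In cis SSP cells 4 of 11 were called, all higher, and when library 25 was left out 10 rose and 1 fell. Of all genes, 1.97% were called higher with it, and 21.9% higher and 19.2% lower without it. Without serine and glycine, 11 of 12 rose with carboplatin in wt cells and none fell, against 34.3% and 34.6% of all genes. In cis cells 8 of 11 rose and 1 fell, against 10.9% and 11.6%. In cis SSP cells 4 of 11 rose and none fell, against 1.17% and 0.295%. Without library 32 these were 9 and 1, against 21.1% and 19.9%. Between the media, the response of cis cells was lower in -SG medium for 6 of 12 and higher for 1, against 6.17% and 5.91%. Deprivation in cis cells brought 6 rises and 3 falls among 11, against 37.6% and 37.4% of all genes. HMOX1 was at 2.81 there (46.1 ± 0.829 to 317 ± 7.22 CPM). Between untreated cis and wt cells, 6 of 11 were higher and 5 lower, against 39.4% and 39.1% of all genes. MMP1 and MMP3 were higher, at 6.37 (28.5 ± 0.732 to 2406 ± 46.2 CPM) and 5.09 (51.7 ± 0.712 to 1796 ± 42.4 CPM). PLAU, the urokinase gene, was lower, at -2.86 (18.2 ± 1.62 to 2.55 ± 0.642 CPM). Heat-shock genes showed 3 rises and 4 falls among 8 with carboplatin in wt cells. With deprivation, 7 of 7 fell in wt cells, against 25.1% of all genes, and 6 of 8 in cis cells, against 37.4%.

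The patterns of the 10 genes over the 12 condition means were compared as Pearson's r of log2 CPM, as a description over conditions that share lines and media, with libraries 25 and 32 included. FOSL1 and FOSL2 had r = 0.89. EGR2 and FOS had the lowest value, -0.58. Among 12672 other genes, the one most like JUN was BEGAIN (r = 0.985), the one most like FOSL1 BLOC1S2 (0.993), the one most like EGR2 MED17 (0.982) and the one most like FOS SRSF5 (0.98). FOSL2 was nearest to ARHGAP31 (0.974), JUNB to FGF2 (0.96), JUND to CCS (0.964) and IER2 to STARD8 (0.988). EGR1 was nearest to PAQR9 (0.948) and FOSB to its fellow immediate-early gene EGR3 (0.917).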

How the data were processed

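RNA was sequenced from 36 libraries of A2780 cells. The authors aligned the reads with STAR (GRCh37.p13), assigned them to GENCODE v19 genes with HTSeq and deposited unnormalized counts. The strand setting is not given in the sources used here. The 3 rows that name no gene stayed out of library sizes and tests, and reads on no feature were 4.21% to 17.9% of a library. The labels number the libraries 1 to 36 and give no replicate numbers that could pair them. The mean chi-square per gene between 2 libraries of a condition was 1.18 to 111 over 36 pairs. The highest values, 93.3 to 111, were those of pairs with library 25 or 32. Library 11 (wt -SG carbo) came next, at 22.9 and 22 from its partners. A value near 1 is what repeated counting of the same RNA gives, so the low values do not show separate cultures. Each library was counted as its own in the tests.

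Each comparison was fitted on its own libraries with edgeR 4.0.16 in R 4.3.3 (filterByExpr, TMM, robust glmQLFit, glmQLFTest). Benjamini-Hochberg adjustment covered all genes tested, and calls were made at an adjusted p under 0.05. A positive log2 fold change means higher with carboplatin, without serine and glycine, or in the first-named line. The SE is the absolute log2 fold change over the root of the F statistic, 95% intervals use the degrees of freedom of the test, and both cover the spread between libraries only. Differences between responses are interaction terms over 4 conditions. CPM were scaled over all libraries, so their ratios can differ slightly from fitted changes. All 10 genes passed the filter in all 15 comparisons. Positions and exon lengths were read from GENCODE v44 lifted to GRCh37. Tests were checked on simulated data. Alternatives were DESeq2 1.42.0, DESeq2 size factors, total counts, no filter, at least 10 counts in every library, 1 fit over 36 libraries, a minimum log2 fold change of 1, a correction for the trend along transcript length, and libraries left out. Counts of list genes without library 25 or 32 were added after the data were seen. The genes, lists and alternatives were chosen with earlier results of these data known. From each list, up to 2 called genes per direction and comparison could be named, by largest change at a mean count of 50 or more. Likeness of pattern used log2 of CPM plus 0.5.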

Additional observations from a re-analysis of the deposited data

Results flagged for a closer look

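The responses to carboplatin differed between groups, by an interaction term, for 17 pairs of gene and comparison, with edgeR's adjusted p under 0.05. Between cis and wt cells in complete medium, the difference was -3.37 for JUN, -2.66 for FOSL1, -1.50 for FOSL2, -1.31 for JUNB, -1.04 for EGR2 and 0.37 for EGR1, each as log2. Between -SG and complete medium in wt cells, it was 1.61 for EGR2, 1.37 for EGR1, 1.08 for FOSB, 0.95 for FOS, 0.64 for JUNB, 0.35 for IER2 and 0.31 for FOSL2. Between -SG and complete medium in cis cells, it was -0.64 for FOSB, -0.57 for EGR2, -0.52 for FOSL1 and -0.31 for IER2.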

How the results depend on the processing

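Of the counts of called genes, 103 of 122 stayed within 1.5 times under the alternatives and 97 of 114 with 1 library left out, as did the call and direction of 2184 of 2353 values of single genes. With a minimum log2 fold change of 1, the calls with carboplatin were 5 in wt and 0 in cis cells in complete medium, and 0 in cis and 2 in cis SSP cells in -SG medium, and they were 3 for deprivation in cis cells, 5 between cis and wt, 3 between cis SSP and cis, and 3 and 0 for the medium interactions of wt and cis cells. Carboplatin in cis cells in -SG medium gave 1 call with DESeq2 or 1 fit over 36 libraries, and 4 with total counts, with at least 10 counts or with the length trend removed. The fit over 36 libraries gave 5 calls for deprivation in cis SSP cells and 4 and 2 for the medium interactions of wt and cis SSP cells. Without libraries 25 and 32, deprivation in cis SSP cells gave 6 and its medium interaction 4. With 1 library left out, carboplatin in cis SSP cells gave 1 to 8 calls in complete and 0 to 8 in -SG medium, with the most without library 25 or 32. Cis cells in -SG medium gave 1 to 5, with 5 without library 23, and the medium interaction of cis cells gave 4 to 8, with 8 without library 22. JUND with carboplatin in cis SSP cells ranged from -0.48 to 0.22 in complete medium and from -0.52 to 0.32 in -SG medium, as log2 fold changes. With total counts, the share of calls that were higher moved from 72.4% to 60.3% for carboplatin in cis SSP cells in complete medium, from 48.4% to 61.1% in cis cells in -SG medium and from 48.9% to 62.5% for the medium interaction of cis cells. The cause of these changes was not tested. No paired analysis was possible because the labels give no replicate numbers that the groups compared share.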
